A study of Mus musculus with 22 samples.

Results

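Mitochondrial ribosomal proteins were taken as the protein-coding genes whose mouse symbol begins with Mrpl or Mrps followed by a number, with pseudogenes left out. The rule found 78 genes among the 55487 gene identifiers of the count tables, 49 with an Mrpl and 29 with an Mrps symbol, on 17 autosomes. By known position in the ribosome, 51 belong to the large subunit, 26 to the small subunit and 1, Mrps36, to neither. All 78 passed the filter on low counts in both cohorts, so every member was tested in every comparison.

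Mitochondria keep their own ribosomes, which translate the few proteins encoded by mitochondrial DNA, all of them parts of the oxidative phosphorylation (OXPHOS) machinery. The ribosomal RNAs come from the mitochondrial genome, whereas every ribosomal protein is made from a nuclear gene, translated in the cytosol and imported. Brown adipose tissue (BAT) is packed with mitochondria and burns fuel as heat through uncoupling protein UCP1, so its OXPHOS genes, nuclear and mitochondrial, are expressed at high levels.

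The study asked how loss of CPEB2, an RNA-binding protein that controls translation, changes the BAT transcriptome, and what ectopic PRDM16, a transcriptional regulator of brown fat identity, does to it. mRNA libraries were made from BAT of 22 mice on a C57BL/6 background, fed chow with 9% fat. The untreated cohort held 5 CPEB2-WT and 5 CPEB2-KO mice of 21 to 25 weeks. The paper states that these mice went without food for some hours before collection, and states no fast for the AAV mice. In the AAV cohort, WT and KO mice had GFP or flag-tagged PRDM16 virus injected into the interscapular BAT at 16 weeks and were sampled 9 weeks later, giving WT_GFP, WT_PRDM16, KO_GFP and KO_PRDM16 groups of 3 mice each. The dose was about 20000000000 vector genomes in 30 µl. The knockout is global, so every tissue of a KO mouse lacks CPEB2, and all 4 AAV groups carried a virus. Whole BAT was sequenced, so that fewer cells of a type and less RNA per cell cannot be told apart.

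A library of the untreated mice held between 55320927 and 162721202 counts, and one of the AAV mice between 61636889 and 143005309. In the AAV cohort Cpeb2 was at 12.4 ± 1.74 CPM (a gene's counts scaled to a common library size; SD, n = 3) in WT_GFP and 5.49 ± 0.065 in KO_GFP, and Prdm16 was at 33.3 ± 8.42 in WT_GFP and 95.6 ± 43.1 in WT_PRDM16. Prdm16 was at 32.7 ± 1.59 in KO_GFP and 90.2 ± 32.6 in KO_PRDM16. The WT_PRDM16 libraries were uneven, at 122, 119 and 45.9 CPM, and the highest WT_GFP library was at 40.2 CPM. In the untreated cohort, KO replicate 1 had Cpeb2 at 11.7 CPM, inside the WT range of 7.69 to 14.3. The labels call every mouse male, yet transcripts of Y-linked genes were close to 0 in WT replicates 3 and 5 and in KO replicates 1, 3, 4 and 5. The X-linked transcript Xist was at 104 to 305 CPM in these same libraries and at 0.031 to 14.0 CPM in the other untreated libraries. The sex that these transcripts point to thus differs from the labels and is not balanced between the untreated genotypes. WT replicates 1 and 2 stood apart in the level of cytosolic ribosomal protein genes, with mean log2 CPM of 4.87 and 5.08 against 6.21 to 7.05 in the other 8 libraries, and KO replicates 1 and 2 and WT replicate 3 had the highest skeletal muscle marker levels. In the AAV cohort, KO_GFP replicate 1 and WT_PRDM16 replicate 2 had the highest muscle marker levels.

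The level of a member was compared with that of another only as CPM per kilobase of merged exon. In the AAV cohort Mrpl34, a small protein of the large subunit with a bacterial counterpart, had the highest level at 72.4 CPM per kb. It was followed by Mrpl12 at 50.2, a stalk protein that contacts translation factors, by Mrpl10 at 36.6, by Mrps23 at 31.2 and by Mrps15 at 30.1. The lowest were Mrpl33 at 1.63, Mrpl23 at 2.46 and Mrpl57 at 2.56 CPM per kb. Merged exons span all annotated transcripts, 607 bases for Mrpl34 and 7326 for Mrpl33, so this order depends partly on the annotation. In the untreated cohort Mrpl34 and Mrpl12 again came first, at 188 and 99.1 CPM per kb, followed by Mrps21, Mrps36 and Mrpl53. Of the exon bases of Mrpl53, 88.0% are shared with Gm42688 on the same strand, so its reads could belong to either gene. Mrpl33 was again last at 3.35. The spread was wide there: Mrpl34 was at 123 ± 66.3 CPM per kb in WT and 254 ± 159 in KO (SD, n = 5), so that neighbours in this order did not differ beyond their spread.

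The member score of a library was the mean log2 CPM of the 78 genes. In the AAV cohort it was 4.62, 4.79 and 4.76 in the WT_GFP libraries and 4.84, 4.83 and 4.91 in the WT_PRDM16 libraries. It was 4.64, 4.49 and 4.49 in the KO_GFP libraries and 4.51, 4.61 and 4.69 in the KO_PRDM16 libraries. Every WT_PRDM16 library lay above every library of the other 3 groups, and under the GFP virus one KO_GFP library lay above the lowest WT_GFP library. The highest AAV score, 4.91, was that of WT_PRDM16 replicate 3, which had the lowest Prdm16 level of the PRDM16 virus libraries, 45.9 CPM. In the untreated cohort the score was 4.67, 4.63, 5.38, 5.05 and 5.64 in WT and 4.94, 4.70, 5.65, 5.60 and 5.73 in KO, and the groups overlapped.

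**Figure D1:**
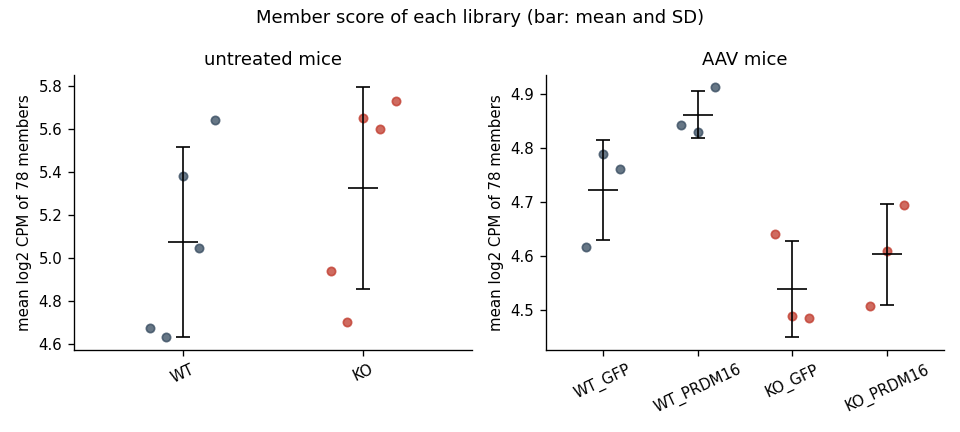
Member score of each library (mean log2 CPM of the 78 mitochondrial ribosomal protein genes, y axis) by group, in the untreated mice (left) and the AAV-injected mice (right); points are libraries and bars give the mean and SD. The AAV libraries lie between 4.49 and 4.91, with KO groups centred below WT groups, while the untreated libraries spread from 4.63 to 5.73.

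In BAT of AAV-injected mice, 12 of the 78 member transcripts passed the test as lower in CPEB2-KO than in WT. They were 6 large subunit members, 5 small subunit members and Mrps36, which belongs to neither subunit. The other 66 members did not pass. Averaged over both viruses, 12 of the 78 members were called lower and 0 higher by edgeR's quasi-likelihood test (Benjamini-Hochberg adjusted p at most 0.05 over 18899 genes), while 1.12% of all genes tested were called lower and 1.06% higher. At an unadjusted p under 0.05, 39 members were lower, against 8.76% of all genes. The log2 fold change was below 0 for 75 of the 78 members, against 48.4% of all genes, and its median was -0.19, against 0.010 over all genes. The 12 called members fell by 0.28 to 0.67 on the log2 scale, and all 12 were lower under each virus. In 10 of them every KO library lay below every WT library. Both features come from the libraries by which these members were chosen, so they are not separate support. Among all 78 members, 14 had every KO library below every WT library, against 1.58% of all genes. The number of members called, 12 in the main fit, was 2 without KO_PRDM16 replicate 1 and 6 without KO_PRDM16 replicate 3. It was 3 without WT_GFP replicate 2 or 3, WT_PRDM16 replicate 1 or 3 or KO_GFP replicate 2. Mrps36 and Mrps24 were called in each of the 12 fits that left out 1 library. The shares of all genes called in those fits are not given here.

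**Figure D2:**
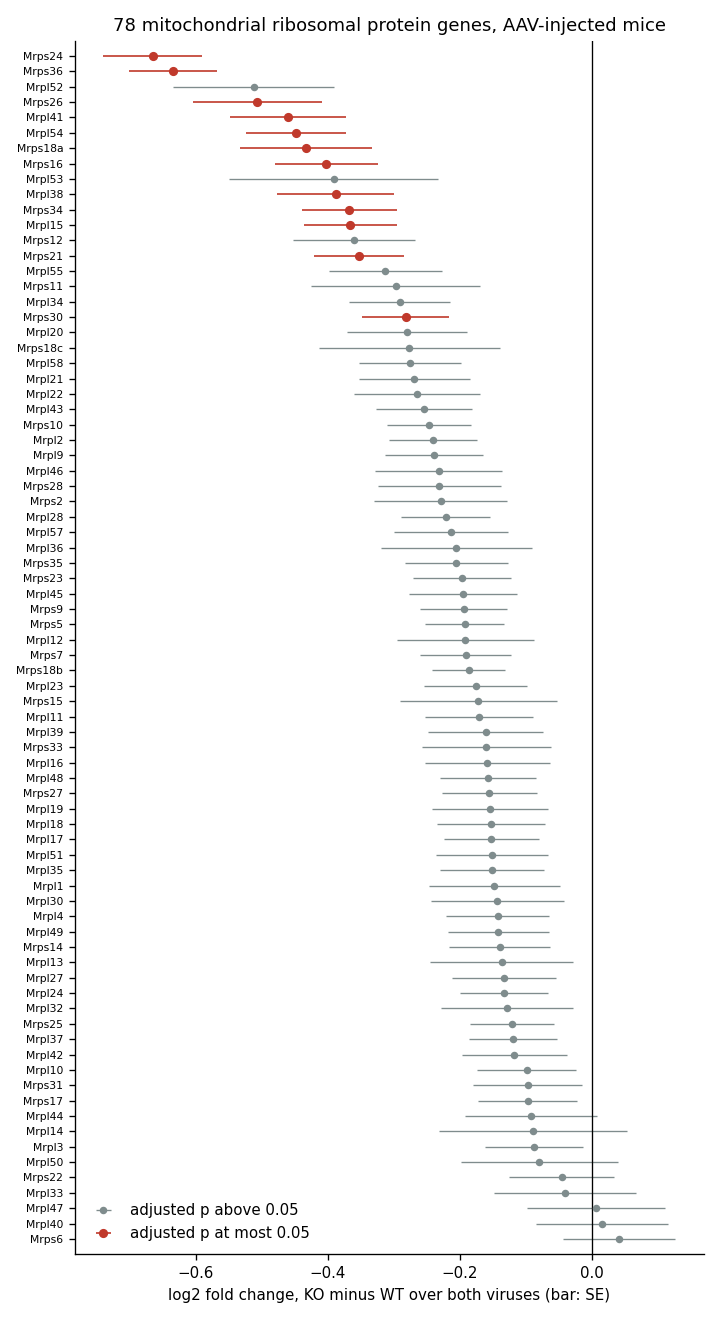
Log2 fold change between KO and WT over both viruses (x axis; bars are standard errors) of each of the 78 members (y axis, ordered), AAV cohort, with the 12 members at an adjusted p of at most 0.05 in red. The points run from -0.67 for Mrps24 to 0.041 for Mrps6, and 75 lie left of 0.

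Mrps36 had the smallest p of all members. Its product, despite the name, is known as a subunit of the 2-oxoglutarate dehydrogenase complex of the citric acid cycle, to which it recruits the E3 component, and not as a ribosomal protein. Mrps36 (chr13:100735955-100744659, minus strand, GRCm38) was at 35.6, 42.6 and 38.3 CPM in WT_GFP, at 44.8, 38.3 and 42.3 in WT_PRDM16, at 24.1, 22.6 and 22.6 in KO_GFP, and at 29.5, 29.6 and 28.2 in KO_PRDM16. All 6 KO libraries lay below all 6 WT libraries, and the KO_GFP libraries lay below the KO_PRDM16 libraries. The genotype difference over both viruses was -0.64 on the log2 scale (SE 0.067, edgeR adjusted p = 0.00439). The Mrps36 processed pseudogenes, whose reads could be mistaken for those of the gene, stayed at or under 0.768 CPM on average in each AAV group.

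Mrps24, a small subunit protein that lines the path by which mRNA enters the ribosome, had the largest difference. Mrps24 (chr11:5703983-5715680, minus strand, GRCm38) was at 24.3, 25.5 and 22.5 CPM in WT_GFP, 27.0, 25.5 and 27.4 in WT_PRDM16, 12.3, 14.0 and 15.6 in KO_GFP, and 19.0, 19.0 and 16.8 in KO_PRDM16. As for Mrps36, the genotypes did not overlap and KO_PRDM16 lay between KO_GFP and the WT groups. The difference was -0.67 (SE 0.075, edgeR adjusted p = 0.00439). The exons of Mrps24 share 15.4% of their bases with Urgcp on the same strand, and Urgcp itself was lower in KO by 0.17 (adjusted p = 0.199), so reads in the shared part could belong to either gene.

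Mrps36 and Mrps24 were also the members called within the GFP virus alone. Between KO_GFP and WT_GFP, 2 of 78 members were called lower, against 0.0476% of all genes, and 0 higher, against 0.00529%. The log2 differences there were -0.75 for Mrps36 (SE 0.094, edgeR adjusted p = 0.0243) and -0.79 for Mrps24 (SE 0.11, edgeR adjusted p = 0.0284). The fit called 0 members without WT_GFP replicate 2 or 3, WT_PRDM16 replicate 3, KO_GFP replicate 1 or 2, or KO_PRDM16 replicate 1, and 1 without WT_GFP replicate 1, WT_PRDM16 replicate 1 or KO_GFP replicate 3. The shares of all genes called in these fits are not given here, so a fall in the count may not be particular to the members. Between KO_PRDM16 and WT_PRDM16 the same genes were lower by 0.52 and 0.54 with adjusted p-values of 0.075 and 0.0909, which did not pass.

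**Figure D3:**
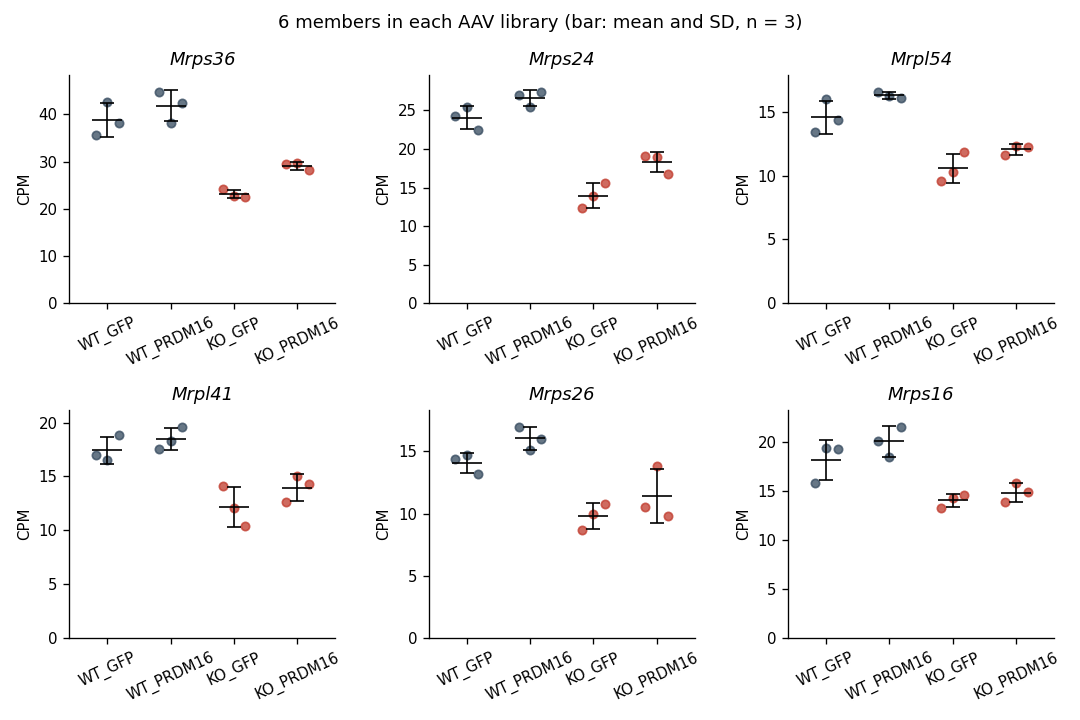
CPM (y axis, from 0) of 6 called members in each AAV library, by group; points are libraries and bars give the mean and SD of 3 mice. KO libraries (red) lie below WT libraries (blue) in all panels except for one KO_PRDM16 library of Mrps26.

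Of the other small subunit members, 4 were called. Mrps26, which has no bacterial counterpart, was at 14.4, 14.7 and 13.2 CPM in WT_GFP, 17.0, 15.1 and 16.0 in WT_PRDM16, 8.70, 9.97 and 10.7 in KO_GFP and 10.5, 13.9 and 9.77 in KO_PRDM16. One KO_PRDM16 library therefore lay above the lowest WT library, and the difference was -0.51 (SE 0.097, edgeR adjusted p = 0.0261). Mrps16, a conserved protein whose loss in people causes an OXPHOS deficiency, was lower by 0.40 (adjusted p = 0.0262), with WT libraries from 15.8 to 21.6 CPM and KO libraries from 13.3 to 15.8 CPM. Mrps21, a short conserved protein, differed by -0.35 (adjusted p = 0.0262). Mrps34, needed for small subunit stability, differed by -0.37 (adjusted p = 0.0287), but 37.0% of its exon bases are shared with Nme3 on the same strand, which differed by -0.95 (adjusted p = 0.126), and 63.4% with Mapk8ip3 on the opposite strand, which differed by -0.014.

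Of the large subunit members, 6 were called. Mrpl54 was at 13.4, 16.0 and 14.3 CPM in WT_GFP, 16.6, 16.2 and 16.1 in WT_PRDM16, 9.61, 10.3 and 11.8 in KO_GFP and 11.6, 12.3 and 12.3 in KO_PRDM16, with no overlap between genotypes. Its difference was -0.45 (SE 0.076, edgeR adjusted p = 0.0165). Mrpl41 differed by -0.46 (adjusted p = 0.0253), Mrpl15, a conserved core protein, by -0.37 (adjusted p = 0.0261) and Mrpl38 by -0.39 (adjusted p = 0.0469). Despite their symbols, Mrps18a and Mrps30 sit in the large subunit, and they differed by -0.43 (adjusted p = 0.0475) and -0.28 (adjusted p = 0.0494).

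Members chosen for their role showed a graded picture. Mrps18a has paralogs Mrps18b and Mrps18c in the small subunit, and these differed by -0.19 (adjusted p = 0.0952) and -0.28 (adjusted p = 0.312) and were not called. Mrps12, a protein of the decoding centre, differed by -0.36 (adjusted p = 0.0642). Mrpl58, a peptidyl-tRNA hydrolase that frees stalled ribosomes, differed by -0.28 (adjusted p = 0.0843). Mrpl12 differed by -0.19 (adjusted p = 0.365), with 1 KO_PRDM16 library at 92.9 CPM, above every WT library. Mrpl52 had a larger difference than most called members, -0.51, but at 2.80 to 6.14 CPM its SE was 0.12 and its adjusted p 0.0526. The members with the highest values were Mrps6, Mrpl40 and Mrpl47, at 0.041, 0.016 and 0.0066, and the sign of each turned under at least 1 alternative.

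The medians of the subunits lay close together. The median log2 fold change was -0.16 over the 51 large subunit members and -0.20 over the 26 small subunit members, with 6 and 5 called. It was -0.18 over the 45 members classed as having a bacterial counterpart, of which 4 were called. It was -0.20 over the 31 classed as mitochondria-specific, of which 7 were called. The latter class holds Mrps18a and Mrps18b, although their paralog Mrps18c is in the former. These differences between classes were not tested.

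The genotype difference could be looked at under each virus separately, since the pairs of groups share no library. The median over the members was -0.16 between KO_GFP and WT_GFP and -0.25 between KO_PRDM16 and WT_PRDM16. Under the PRDM16 virus 0 members were called by edgeR, against 0.00529% of all genes called lower and 0.0423% higher, 35 were lower at an unadjusted p under 0.05, against 6.80% of all genes, and DESeq2 called 14, against 1.66% of all genes called lower. Both differences were below 0 for 69 of the 78 members (88.5%), against 31.3% of all genes, and both were below 0 at an unadjusted p under 0.05 for 17 members (21.8%), against 1.86%. Across the 78 members Spearman's rho between the 2 differences was 0.51, against 0.36 over all genes, and genes of one library are not independent. The interaction of genotype and virus was called for 0 members in either direction, against 0% of all genes, and had an unadjusted p under 0.05 for 1, Mrps18b (-0.25, SE 0.11), against 1.60% of all genes.

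**Figure D4:**
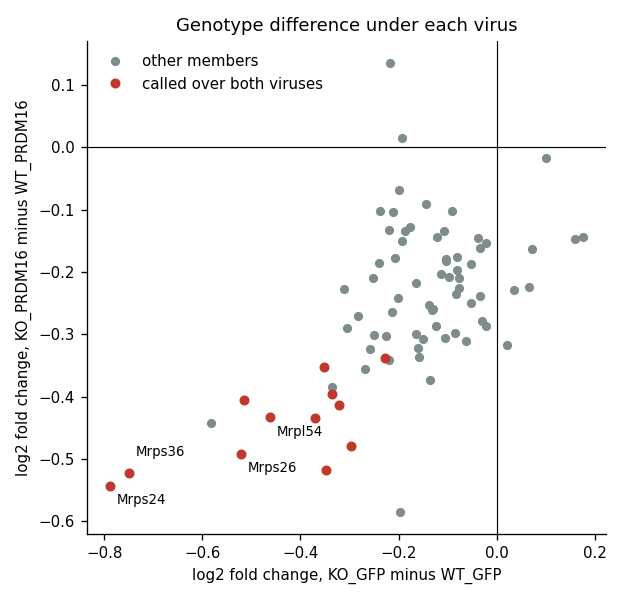
Log2 fold change between KO and WT under the GFP virus (x axis) and under the PRDM16 virus (y axis) of the 78 members, with the 12 called over both viruses in red. 69 of the points lie in the lower left quadrant, and Mrps24 and Mrps36 lie farthest out.

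The PRDM16 virus was accompanied by small differences. Over both genotypes 75 of 78 members were above 0, against 48.4% of all genes, with a median of 0.10, against -0.0067 over all genes. No member was called: 0 higher, against 0% of all genes, and 0 lower, against 0.0370%. At an unadjusted p under 0.05, 6 members were higher by edgeR, against 2.07% of all genes, and DESeq2 called 1, Mrps24, against 0.217% of all genes called higher. The highest were Mrpl19 (0.28, adjusted p = 0.220), Mrps24 (0.27, adjusted p = 0.142) and Mrpl34 (0.25, adjusted p = 0.195), and the lowest Mrps17, Mrpl40 and Mrps10, at -0.11, -0.0059 and -0.0089. Correcting for GC content and length moved the median of all genes to 0.10 and that of the members to 0.22, so that the members lay 0.12 above all genes with the correction and 0.11 without it. Immune markers moved with the virus too, where 51.6% of all genes were below 0 and 7.02% were lower at an unadjusted p under 0.05. All 10 macrophage markers were below 0, with a median of -1.15 and 9 at an unadjusted p under 0.05, and of 14 T and B cell markers 13 were below 0, with a median of -2.77 and 10 at an unadjusted p under 0.05. None of either list was called, and their part in the virus difference of the members was not tested.

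Taken by genotype, the median virus difference was 0.13 in WT and 0.050 in KO mice, with 0 members called in either, against 0% of all genes in each direction. In KO mice Mrps36 was higher by 0.33 (adjusted p = 0.350) and Mrps24 by 0.39 (adjusted p = 0.325), and for both genes every KO_PRDM16 library lay above every KO_GFP library. KO_PRDM16 against WT_GFP gave a median of -0.10 (-0.021 with GC and length offsets, where all genes were at 0.025, and -0.15 with limma-voom and quality weights), with 67 of 78 members lower, against 52.6% of all genes, and 13 lower at an unadjusted p under 0.05, against 4.42% of all genes, and 0 called lower, against 0.00529%, or higher, against 0%. Mrps36 differed there by -0.42 (adjusted p = 0.355). These comparisons share KO_PRDM16 or WT_GFP libraries with one another.

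Other gene lists of the same machinery were set beside the members in the genotype comparison of the AAV cohort. Of all genes, 1.12% were called lower and 1.06% higher, and 8.76% were lower at an unadjusted p under 0.05. Of 82 nuclear OXPHOS genes tested, 29 were called lower and 0 higher, with a median of -0.27. Of 79 cytosolic ribosomal protein genes, 1 was called lower, near the share of all genes, with a median of -0.10. The 5 mitoribosome proteins with other symbols had a median of -0.22, and 1 of them, Gadd45gip1, was called lower (-0.33, adjusted p = 0.0456). Of 24 genes for mitoribosome assembly and rRNA modification 0 were called by edgeR and 10 were lower at an unadjusted p under 0.05, with a median of -0.21. Of 15 mitochondrial translation factors 1, Slirp, which stabilises mitochondrial mRNAs, was called lower (-0.44, adjusted p = 0.0302). Of 17 mitochondrial aminoacyl-tRNA synthetases 0 were called and 6 were lower at an unadjusted p under 0.05. The 13 mRNAs of the mitochondrial genome itself, which these ribosomes translate, had a median of -0.021, with 0 called by edgeR and 0 at an unadjusted p under 0.05.

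**Figure D5:**
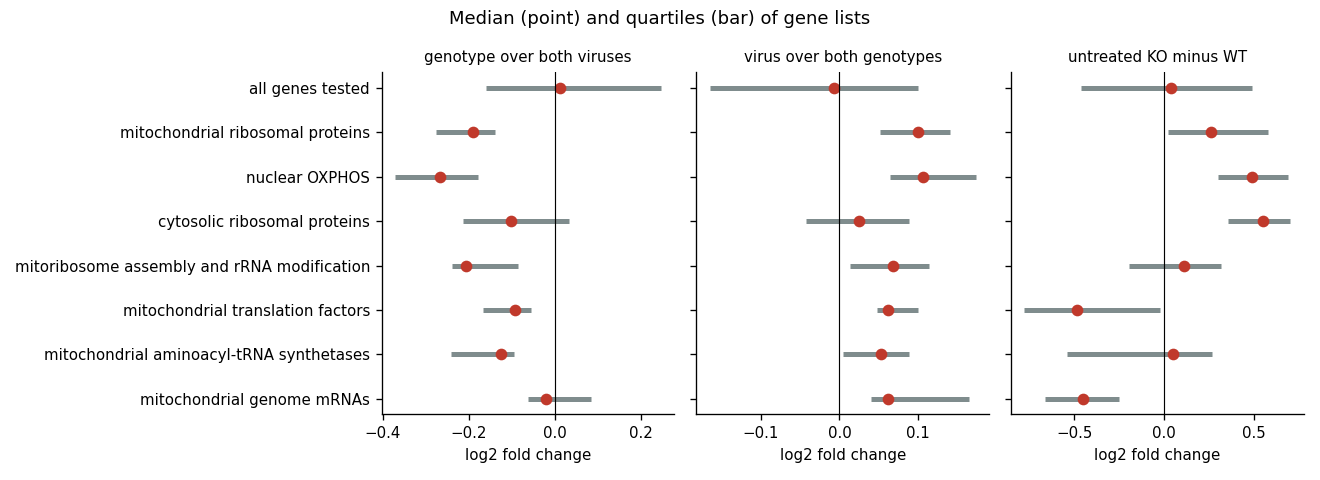
Median (point) and quartiles (bar) of the log2 fold change (x axis) of 8 gene lists (y axis) in 3 comparisons, from left to right KO against WT over both viruses, PRDM16 against GFP virus over both genotypes, and untreated KO against WT; each panel has its own x scale. In the genotype panel the members (-0.19) lie between nuclear OXPHOS (-0.27) and cytosolic ribosomal protein genes (-0.10).

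Marker genes of other cells moved with genotype as well. All 10 macrophage markers were above 0 in KO, against 51.6% of all genes, and 3 were called higher, against 1.06%. Their summed level was 64.8 to 138 CPM in WT_GFP, 46.1 to 57.2 in WT_PRDM16, 153 to 487 in KO_GFP and 81.2 to 108 in KO_PRDM16. Of 10 brown fat markers, 9 were below 0, against 48.4% of all genes. Called lower were 3, against 1.12% of all genes: Cox7a1, Cox8b and Cidea, of which the first pair are themselves OXPHOS genes. The summed brown fat level was 4050 to 6505 CPM in WT_GFP, 5594 to 7386 in WT_PRDM16, 4147 to 5878 in KO_GFP and 4203 to 5047 in KO_PRDM16, and no marker of either list was at 0 in a whole group. With the macrophage score of each library as a covariate, edgeR called 2 members and the median was -0.21. With the brown fat score as a covariate, 0 members were called by edgeR and the median was -0.15. The shares of all genes called in these fits are not given here. The part of cell composition in the lower member levels was not tested further.

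In untreated mice the members were not lower in KO. Of the 78, 59 were above 0, against 51.8% of all genes, and the median was 0.26, against 0.036 over all genes. edgeR called 0 members higher, against 0% of all genes, and 0 lower, against 0%, with the smallest adjusted p at 0.305; DESeq2 called 0 as well. At an unadjusted p under 0.05, 1 member was higher, against 4.99% of all genes, and 4 were lower, against 10.9%. With Y-linked transcripts as a covariate the median turned to -0.045. It was 0.17 with GC and length offsets, 0.11 with the brown fat score as a covariate and 0.14 without WT replicates 1 and 2. Y-linked and Xist levels were not balanced between the untreated genotypes, so genotype and sex cannot be fully told apart in this cohort.

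Other measures moved with genotype in the untreated mice. All 20 skeletal muscle markers were above 0 in KO, with a median of 1.92, as were all 10 macrophage markers, with a median of 0.79, and edgeR called 0 of either list, with 0 at an unadjusted p under 0.05. The level of short transcripts relative to long ones, as the median log2 deviation from the mean over libraries of genes in the lowest quartile of exon length minus that of genes in the highest quartile, was -0.29 ± 0.66 in WT and 0.42 ± 0.52 in KO (SD, n = 5). It was lowest in WT replicates 1 and 2, at -0.98 and -1.01, whose member scores were also the lowest, and highest in KO replicate 5, at 1.06, whose member score was the highest. In the AAV cohort the WT libraries lay between -0.029 and 0.19 on this measure, and the KO libraries between -0.11 and 0.015. The part of these measures in the member levels was not tested.

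The members with the highest untreated values were Mrps34, Mrpl34 and Mrps24, at 1.05, 1.05 and 0.91 (adjusted p = 0.305, 0.316 and 0.328). Mrps34 was at 38.7, 36.3, 62.3, 39.2 and 55.2 CPM in WT and at 34.9, 64.1, 76.3, 149 and 156 in KO. The lowest were Mrpl1, Mrps22 and Mrps31, at -0.79, -0.75 and -0.70. Mrpl1, a large subunit protein at the exit site of tRNAs, was at 22.3, 21.0, 17.8, 15.6 and 27.9 CPM in WT and at 16.3, 8.93, 10.5, 16.5 and 8.08 in KO. Among the 78 members 0 separated the genotypes without overlap, against 0.492% of all genes in the higher and 0.907% in the lower direction, and nuclear OXPHOS and cytosolic ribosomal protein genes had medians of 0.49 and 0.55. Lists on the other side of 0 were the mitochondrial translation factors, with a median of -0.49 and 12 of 15 below 0, the genes for transcription of the mitochondrial genome and its regulators, with -0.50 and 11 of 15 below 0, and the 13 mRNAs of the mitochondrial genome, with -0.45 and all 13 below 0. edgeR called 0 genes of these lists, and 5, 3 and 3 of them were lower at an unadjusted p under 0.05, against 10.9% of all genes.

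The promoters of the members were searched for 3 short motifs, on both strands, in RefSeq windows from 250 bases before to 50 after the transcript start (GRCm38.p6). Windows were found for 69 of the 78 members, 75 windows in all. All windows, used for comparison, belong to 27025 genes, whether or not these were tested here. They leave out an autosome that holds no member. The ETS-type motif CCGGAAG was in 34.7% of member windows and 8.86% of all windows, the NRF1-type motif GCATGCG in 10.7% and 3.58%, and the YY1-type motif AAGATGG in 17.3% and 6.34%. Of the 12 called members 8 had a window, 9 windows in all. The ETS-type motif was in 4 of these windows, the NRF1-type motif in 0 and the YY1-type motif in 2. ETS-type matches after the start, in Mrps16 and Mrps21, are not shown. Called members with an ETS-type match before the start are shown, with the match in capitals on the strand of the gene.
Mrps16, chr14:20393548-20393574: tgggggcgctCTTCCGGgcttcaggct
Mrps18a, chr17:46110968-46110994: cacccctgctCCGGAAGcggaagtgca
Mrps26, chr2:130563733-130563759: tccgcggccaCTTCCGGgccgggcgca
The matches began 74, 26 and 14 bases before the start. In Mrps16 and Mrps26 the match is to the reverse complement. A match describes the sequence and is not evidence of binding.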

How the data were processed

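BAT RNA from 22 mice was sequenced as mRNA libraries, 1 per mouse, and the authors deposited 1 table of raw counts per cohort, with whole read counts for 55487 Ensembl genes. The submitters' processing notes name bcl2fastq 2.20, Trimmomatic 0.36, HISAT2 and the GRCm38.p6 build; the counting tool and its use of strand are not given in the sources used here, so reads of overlapping genes and close copies are uncertain. Names and exon lengths came from GENCODE M21. The 78 members and all lists were chosen with earlier results of these data known.

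Counts were filtered with filterByExpr (17869 genes kept for the untreated mice, 18899 for the AAV mice), scaled by TMM and tested with the quasi-likelihood test of edgeR 4.0.16 (R 4.3.3), each cohort fitted on its own with all its groups, and p-values were adjusted over all genes by Benjamini-Hochberg at 0.05. Log2 CPM used a prior count of 2. Alternatives were DESeq2 1.42.0, limma-voom with sample quality weights (limma 3.58.1), other scalings and filters, GC content and length offsets, covariates, a replicate block and leaving out libraries. The fits were also run on simulated counts, whose settings are not given here. There they recovered most of the known changes, and edgeR and limma-voom made fewer false calls than DESeq2. DESeq2 made more false calls than its threshold allows, so its larger counts are given as alternatives only. A direct call of DESeq2 gave the same excess. Whether the fits find differences as small as those of the members was not tested. Their share of false calls at the spread of these libraries was not tested either. Genes were named by their adjusted p (up to 10 per comparison), by the 3 highest and 3 lowest log2 fold changes in 3 comparisons, by level per kilobase and by role. Replicates are separate mice. No 2 libraries of the same group agreed within counting noise. The precision of every comparison is limited by the 3 or 5 mice per group. Same-numbered replicates gave no sign of pairing, and shared litters were not examined.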

Additional observations from a re-analysis of the deposited data

How the results depend on the processing

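Over both viruses, 12 members were called lower in KO, against 1.12% of all genes. DESeq2 called 25, against 3.97% of all genes called lower. With limma-voom and sample quality weights (used together throughout) 28 were called. The replicate block with GC content and length offsets gave 7. Alternatives chosen after seeing the data gave 2 with the macrophage score and 0 with the brown fat score as a covariate. Shares of all genes are given in this paragraph for the main fit and DESeq2 only. Leaving out 1 library gave 2 to 11 called, and the median stayed between -0.23 and -0.16. For KO_GFP against WT_GFP the 2 called lower (0.0476% of all genes) became 6 with DESeq2 (0.624%). The count was 0 with the replicate block, with the block and GC and length offsets, or with the muscle score. It was also 0 with the macrophage score, with only the 2 groups fitted, or without both libraries of high muscle score. It was 1 with the brown fat score and 0 to 2 without 1 library. For KO_PRDM16 against WT_PRDM16, 0 called lower (0.00529% of all genes) became 14 with DESeq2 (1.66%) and 20 with limma-voom and weights. DESeq2 called 1 member higher in KO_PRDM16 against KO_GFP (0.101% of all genes) and 1 lower in KO_PRDM16 against WT_GFP (0.439%). It called 1 higher for the virus over both genotypes (0.217%), where GC and length offsets also called 1. With those offsets the virus medians rose to 0.25 in WT, 0.17 in KO and 0.22 over both genotypes (0.24, 0.17 and 0.22 with the replicate block added), and without both libraries of high muscle score the KO median was 0.13. The untreated median turned from 0.26 to -0.045 with Y-linked transcripts as a covariate and was 0.17 with GC and length offsets, 0.12 with the block added, 0.11 with the brown fat score and 0.14 to 0.46 without 1 library. The median of KO_PRDM16 against WT_GFP moved from -0.10 to -0.021 with the offsets, -0.020 with the block added and -0.15 with limma-voom and weights. The cause of each shift was not tested.

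Without 1 library the medians ran from -0.23 to -0.12 (KO_GFP against WT_GFP), -0.31 to -0.19 (KO_PRDM16 against WT_PRDM16), 0.087 to 0.16 (virus in WT), 0.011 to 0.13 (virus in KO), -0.16 to -0.059 (KO_PRDM16 against WT_GFP), 0.067 to 0.14 (virus over both genotypes) and -0.13 to -0.027 (interaction), with 0 called in the last 6 of these and in the untreated cohort. Same-numbered samples correlated at -0.091 to 0.15 in the AAV and -0.29 to 0.11 in the untreated cohort. Differently numbered samples ran from -0.23 to 0.21 and from -0.36 to 0.29, so there was no sign of pairing by replicate number. These correlations cannot exclude shared litters, which were not examined. The block left 10 called over both viruses. Shares of all genes called in the fits of this paragraph are not given here.

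Members near 0 changed sign. In the genotype comparison Mrpl40 was -0.028 with limma-voom, -0.036 with the muscle score, -0.053 with the brown fat score and -0.081 without both libraries of high muscle score, and -0.085 to 0.072 without 1 library. Mrpl47 was -0.0095 with limma-voom, -0.10 with GC and length offsets, -0.10 with the block added, -0.015 with the muscle score, -0.013 with the macrophage score, -0.063 without both libraries, and -0.068 to 0.088 without 1 library. Mrps6 was -0.050 with the brown fat score and -0.014 to 0.076 without 1 library. In the virus comparison Mrpl40 was 0.035 with limma-voom, 0.092 with GC and length offsets, 0.10 with the block added, 0.030 with the muscle score, 0.019 with the brown fat score and 0.096 without both libraries, and -0.070 to 0.099 without 1 library. Mrps10 was 0.11 with GC and length offsets, 0.11 with the block added and 0.015 without both libraries, and -0.042 to 0.012 without 1 library, and Mrps17 was 0.0058 with the offsets and 0.0091 with the block added.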
